A study of Homo sapiens with 16 samples.

Results

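The transcript response to palmitic acid was described by setting each of 8 HepG2 clones against itself. All 16 libraries of the series entered: 8 palmitic acid libraries and 8 control libraries, with 1 of each per clone. HepG2 cells derive from a human liver tumour and still carry out much of what hepatocytes do. The clones came from prime editing, in which a nicked strand is rewritten from a guide RNA template, at the I148M codon of PNPLA3, a lipid droplet protein whose I148M form goes with fatty liver disease. GG clones 1, 2 and 6 carry 2 copies of the G allele, the one for methionine, GC clones 2, 3 and 4 carry 1 copy, and CC clones 1 and 3 carry none. In the text GG1 is GG clone 1, and likewise for the others. The treated libraries had 250 µM palmitic acid for 48 h by the protocol; the labels of single libraries count up to 55 h in sample order, so that these hours and the clones cannot be told apart. The control libraries are labelled as controls, and their vehicle is not given in the sources used here. Each genotype rests on 2 or 3 clones of 1 line, and transcript levels do not check the edited base. Of 16558 genes in the table, the 13095 with a mean of at least 1 unit over the 16 libraries were tested. Values are in per-million units with the authors' scaling between libraries (units below), and every change is a difference of log2(value + 0.5), which understates the change of low genes.

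Palmitic acid is the most common saturated fatty acid of the circulation and is used to load cultured liver cells with lipid. Hepatocytes take up fatty acids, bind them to coenzyme A, and oxidize, esterify or export them. Saturated fatty acids that are not stored as triglyceride are known to stress membranes and to set off kinase signalling in liver cells. The liver also makes most plasma proteins and breaks down amino acids, alcohols, aldehydes and drugs.

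Libraries held 9314342 to 15777669 reads, the lowest being the palmitic acid library of CC3. Palmitic acid libraries had 15920 detected genes on average and control libraries 16050, lower with palmitic acid in 6 of 8 clones (two-sided exact sign-flip permutation test over 8 pairs, p = 0.0390625, where the smallest possible p is 0.00781). Mean reads were 12360000 and 13500000, also lower with palmitic acid in 6 of 8 clones (two-sided exact sign-flip permutation test over 8 pairs, p = 0.15625). The part of read depth in the number of detected genes was not tested. Changes in CC3 were wider than elsewhere, with an SD over genes of 0.567 against 0.311 to 0.404 in the other 7 clones, and their part in a result is given below by leaving CC3 out. The summed level of the 9 hepatocyte markers ran from 17130 to 38560 units in palmitic acid libraries and from 22070 to 49490 in control libraries. Of these 9 markers 0 rose and 5 fell (55.6%), against 10.7% up and 10.2% down over all genes tested. Their median change was -0.29, and the clone medians were negative in 8 of 8 clones, from -1.19 in CC3 to -0.05 in GG6. Of 8 stellate or fibroblast markers 5 were in the table, summing to 70.4 to 135 units with palmitic acid and 59.7 to 126 in control, and COL1A2, DCN and LUM were not among the listed genes. Of the 4 tested, 2 rose and 1 fell, with a median change of 0.65 and a positive median in 7 of 8 clones. The hepatocyte markers include secreted liver proteins such as AFP and APOA1, and the stellate or fibroblast markers include the actin-binding TAGLN. They are thus no measure apart from the rises of cytoskeletal genes and the falls of secreted liver proteins described below. The part of cell state in either was not tested. PTPRC, CD163 and MARCO of macrophages, VWF and KDR of endothelium and KRT7 and CFTR of bile ducts were not listed either. The 3 macrophage markers in the table had a median sum of 692.2 units with palmitic acid and 531.1 in control. The 3 bile duct markers had 341.4 and 342.8, and the 4 endothelial markers 11.04 and 14.55. Of those tested, 1 of 3 macrophage and 1 of 2 endothelial markers fell, and 0 members of the 3 lists rose. With 2 to 4 genes tested, these lists and the stellate or fibroblast list are too short to set against the shares of all genes. In bulk RNA, fewer cells of a kind and less RNA per cell cannot be told apart.

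Palmitic acid moved 2745 of 13095 genes (21%; limma paired by clone, Benjamini-Hochberg adjusted p under 0.05). Of these 1406 rose (10.7% of genes tested) and 1339 fell (10.2%), and most moved little. These shares are the background for the counts of every list below. The median change of the called genes was 0.31 upward and -0.36 downward on the log2 scale, 2081 of the 2745 stayed under 0.5 in size, and 92 passed 2-fold, 56 upward and 36 downward. The median change over all genes tested was -0.0058. Without GC3 limma called 1742 genes, and without GG1 934 rose; without pairing by clone it called 19. In 8 of 8 clones 1582 of the called genes went the same way, 801 upward and 781 downward; since the calls were made from these changes, that share is no separate measure of agreement. Over all genes, 886 were higher in 8 clones and 892 in none, while 1868 were higher in exactly 4.

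**Figure D1:**
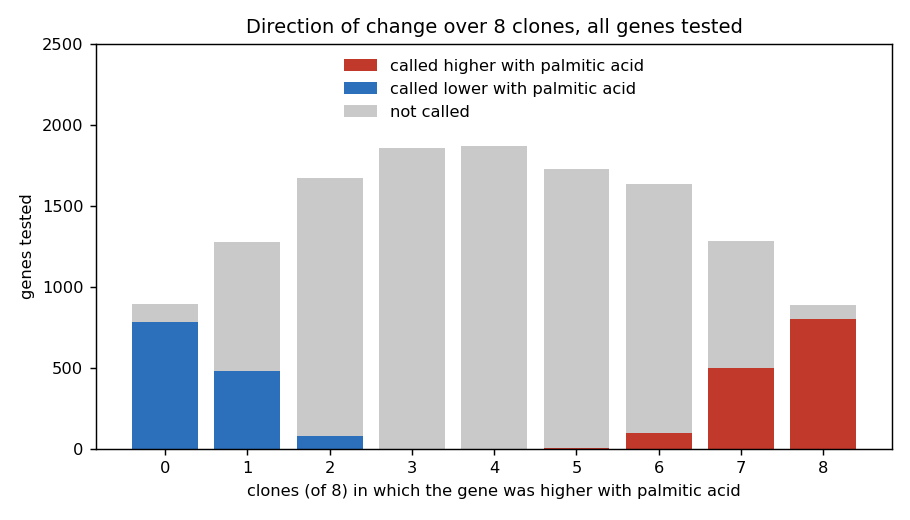
Number of genes tested (vertical axis) by the number of clones in which the gene was higher with palmitic acid (horizontal axis), coloured by limma's call. The 886 genes higher in all 8 clones and the 892 higher in none are mostly called, and no gene higher in 3 or 4 clones was.

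A measure that the calls did not use came from leaving out each clone in turn and calling genes in the other 7. In the left-out clone, 80.0 to 96.7% of those genes moved in the called direction, with a median over clones of 87.4%. GC3 was highest at 96.7%, followed by GG1 at 94.9%, GC2 at 89.1%, CC3 at 87.6% and GC4 at 87.2%, and the lowest were CC1 at 80.8%, GG6 at 80.7% and GG2 at 80.0%. Each clone had its own set of called genes, from 1741 of the 13095 for GC3 to 2550 for CC1. The order of the clones is thus not over like sets of genes. Over all genes, the share moving upward in a clone was 46.9 to 53.0%. The size of the response also varied over clones. Over the same called genes, the slope of a clone's changes on the mean change of the other 7 was 1.43 in CC3 and 1.16 in GC3. It was 0.97 in GG1, 0.75 in GG6, 0.72 in GC4, 0.68 in GC2, 0.64 in CC1 and 0.54 in GG2. The genes were called on the changes of the other 7, a choice that raises their mean change. A slope under 1 thus does not by itself mean a weaker response. For every clone but CC3, the mean of the other 7 also holds the wide changes of CC3. In CC3, 334 genes passed 2-fold upward and 641 downward, while GC2 had 60 and 82. Both high and low slopes were found among clones of 1 genotype, as with CC3 and CC1. Correlations between the changes of 2 clones over the 13095 genes ran from 0.195 (GG2 and GG6) to 0.580 (GG1 and GC3), as a description, since genes are not independent replicates. Of the sum of squares of all changes, 43.6% lay in the change common to all clones, 15.7% between genotypes and 40.7% between clones within a genotype. Per degree of freedom these shares were 43.6, 7.85 and 8.13%, and without CC3 the common part was 45.0%.

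**Figure D2:**
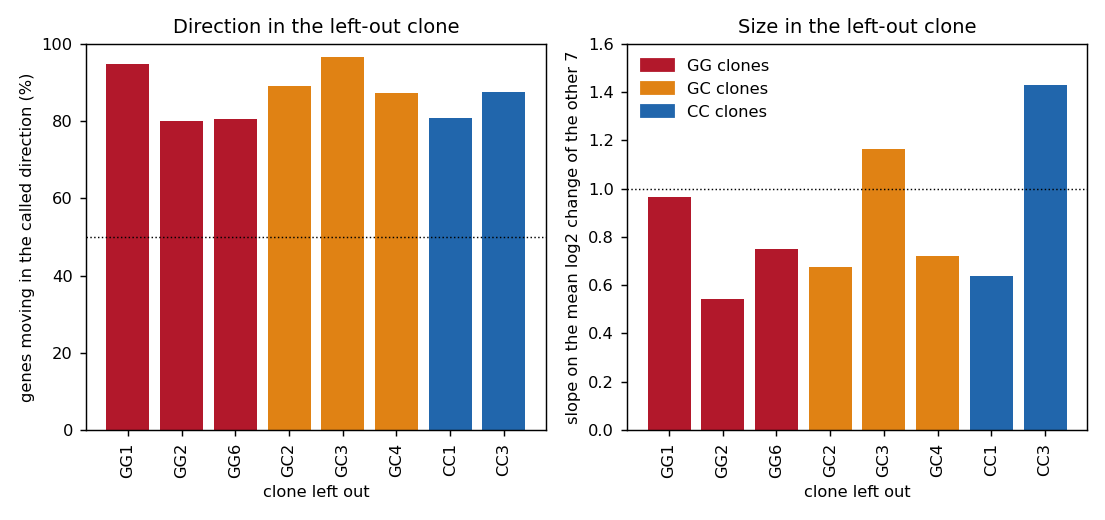
Left, the percentage of genes called in the other 7 clones that moved in the called direction in the clone left out (dotted line at 50%). Right, over the same genes, the slope of that clone's log2 changes on the mean of the other 7 (dotted line at 1). The genes were called on those 7 clones, so a slope under 1 does not by itself mean a weaker response. The percentage ran from 80.0 in GG2 to 96.7 in GC3, while the slope ran from 0.54 in GG2 to 1.43 in CC3.

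Uniformity was ranked by the SD of the log2 change over clones, among changes of at least 0.5 in size. Among rises of at least 0.5, the smallest SD over clones belonged to ABLIM1, an actin-binding LIM protein (chromosome 10). It was at 399, 626 and 867 units (lowest, median, highest) with palmitic acid and at 261, 426 and 639 in control. Its change was 0.53 ± 0.04 (SE, n = 8 clones, adjusted p = 1.88e-05), with 0.42 to 0.61 in single clones, although the ranges of the conditions overlapped because clones differed in level. The splicing regulator MBNL2 changed by 0.56 ± 0.04 and by 0.44 to 0.67 per clone. CYSTM1 (0.69 ± 0.06), RHOBTB3 (0.54 ± 0.05), the tyrosine kinase FRK (0.71 ± 0.06), the SMAD corepressor TGIF1 (0.59 ± 0.06), the actin-bundling FSCN1 (0.71 ± 0.06) and the kinase feedback inhibitor SPRY2 (0.58 ± 0.07) also rose with an SD of at most 0.16. These genes were chosen for a small spread above a set size, so that their spread and their modest size are a description.

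Among falls of at least 0.5 the smallest SD was that of TIMP3, an inhibitor of matrix metalloproteinases (chromosome 22). TIMP3 had 47.0, 153 and 260 units with palmitic acid, against 82.0, 227 and 371 in control, a change of -0.65 ± 0.05 (adjusted p = 1.28e-05) that lay between -0.80 and -0.51 in every clone. MPC1, a subunit of the carrier that brings pyruvate into mitochondria, had 7.70, 12.4 and 23.2 units with palmitic acid and 12.9, 20.3 and 43.4 in control (-0.74 ± 0.06, adjusted p = 2.47e-05). HEG1 (-0.63 ± 0.05), RAPH1 (-0.52 ± 0.06), the calcium-binding lactonase RGN (-0.53 ± 0.06), the death-associated kinase DAPK1 (-0.50 ± 0.06), the retinol carrier RBP4 (-0.66 ± 0.06) and the transcriptional coregulator CITED2 (-0.61 ± 0.07) also fell, with an SD over clones of at most 0.192. DAPK1 had 65.5 to 106 units in the 8 palmitic acid libraries and 120 to 145 in the 8 control libraries, with no overlap.

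**Figure D3:**
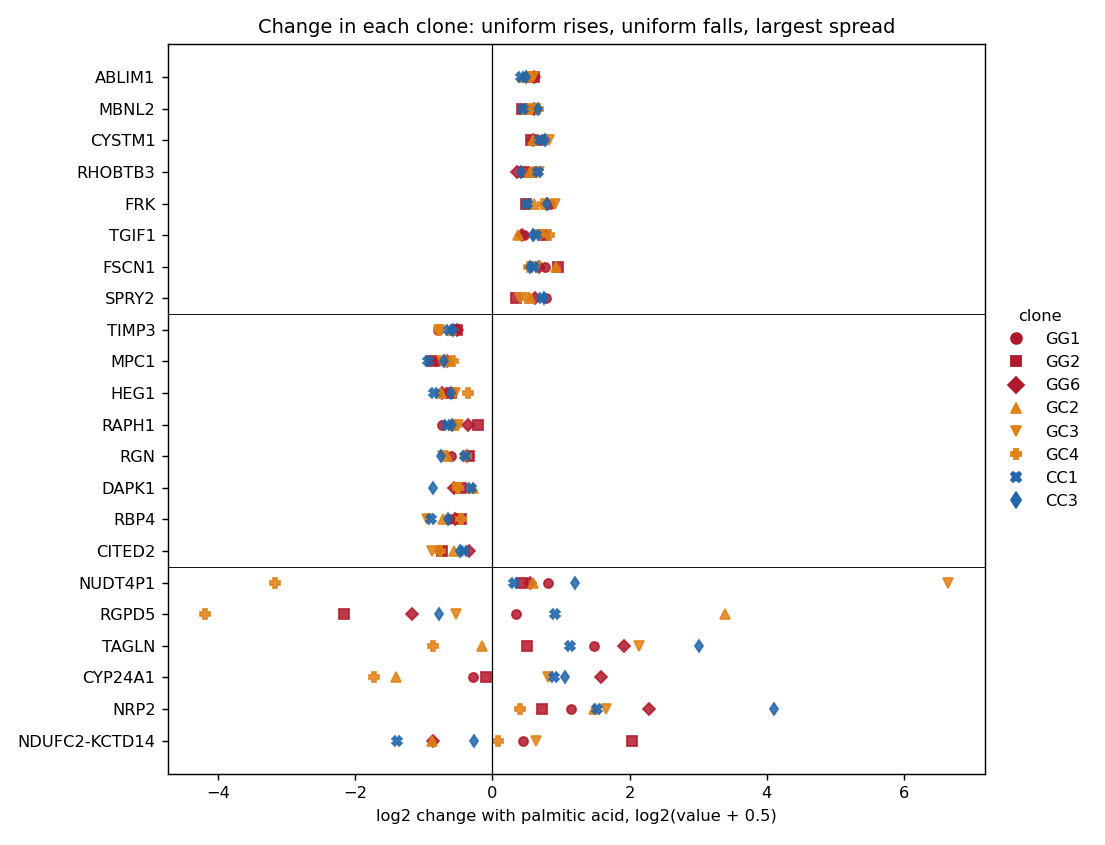
Log2 change with palmitic acid (horizontal axis) in each of 8 clones (symbols, coloured by genotype) for the 8 most uniform rises, the 8 most uniform falls and the 6 genes with the widest spread. ABLIM1 stays between 0.42 and 0.61, whereas TAGLN runs from -0.86 to 3.01.

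Only 20 of 13095 genes (0.153%) had palmitic acid and control levels that did not overlap over the 16 libraries, 13 higher and 7 lower with palmitic acid; they are named here after their values were seen. TGFB1, the transforming growth factor, had 68.5 to 212 units with palmitic acid and 42.3 to 65.3 in control. The chaperonin subunit CCT6A had 207 to 238 units with palmitic acid and 170 to 202 in control, a change of 0.29 ± 0.05 (adjusted p = 0.00138). The lysophosphatidic acid acyltransferase AGPAT5 had 62.7 to 78.1 units with palmitic acid and 54.2 to 62.2 in control, a change of 0.24 ± 0.04 (adjusted p = 0.00262). Small changes could thus part all libraries where clones had near-equal levels. The phosphatase PTPN23, the ligases TRIM47 and RNF19A, the focal adhesion protein ZYX and the mitochondrial ribosomal MRPS23 were also apart and higher. On the lower side CLSTN1 had 212 to 244 units with palmitic acid and 257 to 309 in control (-0.31 ± 0.04, adjusted p = 0.00059).

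The widest spread among genes with at least 10 units in both conditions belonged to NUDT4P1, RGPD5, TAGLN, CYP24A1, NRP2 and NDUFC2-KCTD14. NUDT4P1 was at 0 in the GC3 control and at 49.5 units in GC3 with palmitic acid, and at 2.16 units in GC4 with palmitic acid and 23.4 in its control. NUDT4P1 and RGPD5 have near-identical copies elsewhere in the genome and NDUFC2-KCTD14 is a read-through transcript, so that the reads of these 3 are uncertain. TAGLN, the actin-binding transgelin, was higher with palmitic acid in 6 clones, with 101 units in CC3 against 12.0 in its control, and lower in GC2 (43.0 against 47.7) and GC4 (9.10 against 17.0). CYP24A1, which inactivates vitamin D, was higher in 4 clones and lower in 4, at 127 units in CC3 with palmitic acid and 60.9 in its control, and at 9.10 in GC4 with palmitic acid and 31.2 in its control. NRP2, a semaphorin receptor, was higher in every clone, by 0.40 to 4.11.

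Whether the response differed between genotypes was asked by limma's F test on the palmitic acid change of GG, GC and CC clones. It called 1 of 13095 genes (0.00764%), with 474 at an unadjusted p under 0.05; edgeR called 0 and DESeq2 1. The gene was the gel-forming mucin MUC5AC (chromosome 11, 1157953 to 1201138 on GRCh38; adjusted p = 0.0115). MUC5AC had 7.67 units in CC1 and 10.2 in CC3 with palmitic acid, against 0 and 0.0798 in their controls. It was at 0.0681 in GC2 with palmitic acid and at 0 in the other 11 libraries. The mean changes were 4.12 in CC, 0.06 in GC and 0.00 in GG clones. MUC5AC passed the filter on low values only through the 2 CC palmitic acid libraries, so it had to differ there, and its change and p are given as a description. With controls at or near 0, the size of the change is set by the pseudocount. No gene was called without GG2, without GC2, without CC3 or with a pseudocount of 0.1, and the difference lies in the 2 CC clones.

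Immediate early genes, whose transcription follows growth factor or stress signals without new protein synthesis, were the list with the highest share of rises. Of 23 tested, 19 rose and 0 fell, against 10.7% and 10.2% of all genes, with a median change of 0.62 and a positive median in each clone, from 0.24 in GG2 and CC1 to 1.04 in GC3. JUNB, an AP-1 subunit (chromosome 19, 12791496 to 12793315), had 10.8, 15.0 and 72.9 units (lowest, median, highest) with palmitic acid and 4.74, 7.52 and 13.8 in control. JUNB rose by 1.33 ± 0.18 (adjusted p = 0.000432). The palmitic acid levels of GG6 (62.8) and CC3 (72.9) stood far above the other 6, which lay between 10.8 and 18.1. JUN rose by 1.06 ± 0.13, with 13.9, 23.4 and 47.5 units with palmitic acid and 5.84, 11.0 and 29.2 in control, and JUND (0.62 ± 0.09), FOSL1 (0.65 ± 0.13) and FOS (0.40 ± 0.13) rose less. ZFP36L1, which binds AU-rich mRNA tails and speeds their decay, had 63.1, 107 and 254 units with palmitic acid, against 37.7, 54.6 and 122 in control (1.02 ± 0.11, adjusted p = 0.00014). EGR1 (1.00 ± 0.18), IER3 (1.04 ± 0.20), KLF10 (0.88 ± 0.16), NR4A1 (0.74 ± 0.11) and the serum response factor SRF (0.17 ± 0.05) rose as well.

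Genes that are induced by the ERK MAP kinase pathway and mostly restrain it moved alongside. Of 23 tested, 13 rose and 1 fell, with a median of 0.35 and clone medians of 0.09 (GG2, GC2) to 0.67 (GC3). SPRY4, a Sprouty inhibitor of receptor signalling, had 72.3, 265 and 580 units with palmitic acid and 27.9, 80.1 and 190 in control. SPRY4 rose by 1.31 ± 0.16 (adjusted p = 0.000216), and CC3 was the highest palmitic acid library. PHLDA1 (0.58 ± 0.07), PHLDA2 (1.17 ± 0.25), the ERK phosphatases DUSP6 (0.54 ± 0.09) and DUSP4 (0.61 ± 0.17), the EGF receptor inhibitor ERRFI1 (0.49 ± 0.09) and the ETS factors ETV4 (0.35 ± 0.07) and ETV5 (0.20 ± 0.05) rose. The Ras GTPase activator RASA4, which has near-identical copies, was the member that fell (-0.64 ± 0.09).

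**Figure D4:**
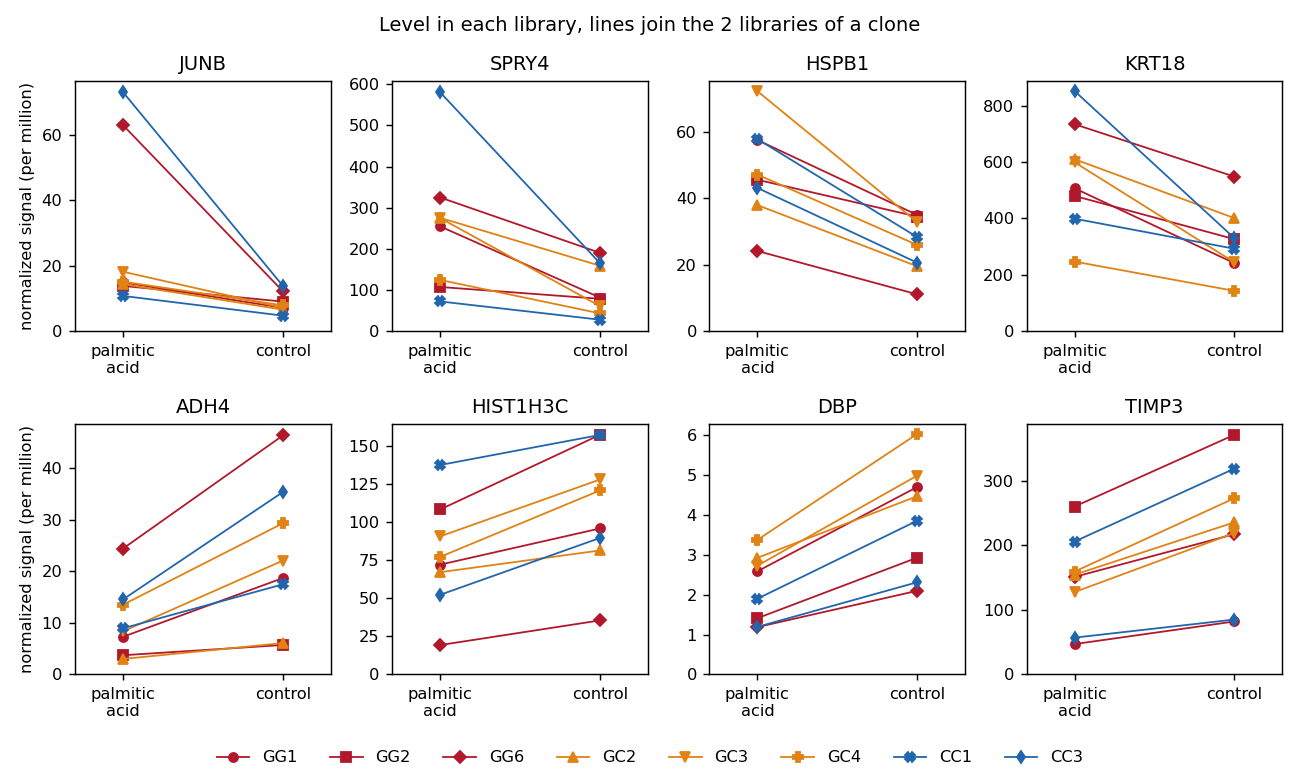
Normalized level (vertical axis, per-million units, starting at 0) in the palmitic acid and control library of each clone, joined by a line, for 4 genes that rose and 4 that fell. JUNB in GG6 and CC3 stands at 62.8 and 72.9 with palmitic acid, while DBP and TIMP3 stand lower with palmitic acid in 8 of 8 clones.

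Ligands and receptors moved both ways. Of 24 cytokine and chemokine genes tested 9 rose and 2 fell (1 without CC3). IL11, a cytokine of the interleukin-6 family, had 0.681, 3.52 and 44.6 units with palmitic acid and 0.0844, 0.854 and 15.8 in control (1.31 ± 0.24, adjusted p = 0.00279), so that most clones held little of it. The TWEAK receptor TNFRSF12A (1.13 ± 0.18), the interleukin-6 receptor IL6R (0.80 ± 0.15), the macrophage growth factor CSF1 (0.62 ± 0.13), LIF (0.40 ± 0.11) and OSMR (0.27 ± 0.04) rose. TNFSF10, the death ligand TRAIL, fell to 3.15, 7.68 and 10.5 units with palmitic acid, against 9.77, 13.7 and 22.3 in control (-1.06 ± 0.14, adjusted p = 0.000345). CSF3R, the receptor of the granulocyte growth factor, fell by 1.20 ± 0.16 on the log2 scale. Of 29 growth factor ligands and receptors 5 rose and 6 fell: EREG, an EGF receptor ligand (0.73 ± 0.14), PDGFA (0.93 ± 0.21) and MET (0.16 ± 0.05) rose. KLB, the coreceptor of FGF21 (-0.75 ± 0.15), HGFAC, which activates hepatocyte growth factor (-1.14 ± 0.14), ERBB3 (-0.26 ± 0.06) and the insulin receptor INSR (-0.17 ± 0.04) fell. IGFBP1, a liver-secreted binding protein of insulin-like growth factors, rose by 1.06 ± 0.19 and was higher in 7 of 8 clones.

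Of 28 genes of TGF-beta, activin and BMP signalling, 9 rose and 2 fell, with a positive median in 8 of 8 clones (0.03 to 0.30). SKIL, a repressor of SMAD factors that TGF-beta induces, had 90.6, 122 and 231 units with palmitic acid and 50.3, 76.7 and 121 in control (0.85 ± 0.08, adjusted p = 3.43e-05). Of the receptors, BMPR2 (0.56 ± 0.06), TGFBR2 (0.34 ± 0.06), TGFBR3 (0.47 ± 0.09) and ENG (0.68 ± 0.14) rose and ACVR1B fell (-0.30 ± 0.06). The activin subunit INHBE rose (0.82 ± 0.12) and the BMP signal carrier SMAD9 fell (-0.70 ± 0.12). Lists of beta-catenin targets (17 tested, 3 up and 2 down) and of YAP and TEAD targets (24 tested, 5 up and 3 down) had medians of -0.00 and 0.04; without CC3, 5 beta-catenin targets and 3 YAP and TEAD targets rose. Among them NKD1, an inhibitor of Wnt signalling, rose by 0.51 ± 0.06, and AMOTL2, an angiomotin that binds YAP, fell by 0.78 ± 0.12 on the log2 scale. HEY1, a Notch target repressor, had 1.11, 3.05 and 25.6 units with palmitic acid and 0.241, 1.13 and 5.33 in control (1.40 ± 0.21), and MIXL1, a homeobox factor of mesendoderm, had 9.64, 22.7 and 39.1 with palmitic acid against 4.08, 6.86 and 16.5 in control (1.52 ± 0.13, adjusted p = 2.6e-05).

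Cytoskeletal and adhesion genes formed the widest set of rises by number of genes. The tested stellate or fibroblast markers, with a median change of 0.65, include the actin-binding TAGLN and are no separate measure. Of 53 actin genes and regulators 27 rose and 5 fell, with clone medians of 0.05 (CC1) to 0.40 (CC3). FSCN1 had 173, 341 and 539 units with palmitic acid and 107, 202 and 317 in control (0.71 ± 0.06). The monomer-binding PFN1 had 285, 323 and 372 units with palmitic acid, against 208, 240 and 298 in control (0.42 ± 0.06, adjusted p = 0.000761). FLNA (0.70 ± 0.13), TPM4 (0.51 ± 0.07), the myosin MYH9 (0.32 ± 0.05), the ARP2/3 subunits ARPC5 (0.40 ± 0.07) and ARPC2 (0.31 ± 0.06), and the actins ACTG1 (0.41 ± 0.11) and ACTB (0.31 ± 0.10) rose. Among the falls were the myosin MYH10 (-0.19 ± 0.05), a paralogue of MYH9, and the cofilin CFL2 (-0.15 ± 0.05), and the difference between paralogues was not tested.

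Of 35 integrin and focal adhesion genes 16 rose and 4 fell, with a median of 0.27 that was negative in GC4 (-0.08). ITGA1, a collagen-binding integrin chain, had 94.2, 313 and 590 units with palmitic acid and 56.4, 161 and 396 in control (0.91 ± 0.12, adjusted p = 0.000406), and ITGA10, of the same class, rose by 1.42 ± 0.22. ITGA2 (0.79 ± 0.11), ITGA3 (0.88 ± 0.21), ACTN1 (0.44 ± 0.06), PXN (0.30 ± 0.05) and VCL (0.37 ± 0.09) rose. ZYX had 54.5 to 87.9 units with palmitic acid and 34.9 to 52.5 in control, with no overlap. PDLIM1, a PDZ and LIM protein of stress fibres, fell to 85.7, 133 and 193 units with palmitic acid, against 129, 243 and 275 in control (-0.67 ± 0.07, adjusted p = 0.000137). Of 16 S100 proteins and annexins, which bind calcium, 7 rose and 2 fell; S100A11 had 15.5, 31.3 and 72.3 units with palmitic acid and 5.19, 11.6 and 19.3 in control (1.21 ± 0.12, adjusted p = 6.24e-05). Of 15 tubulins 6 rose and 0 fell, TUBB3 by 0.52 ± 0.08 and TUBA1C by 0.30 ± 0.05; without CC3 the count was 9.

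Epithelial keratins and junction genes rose more often than they fell, 11 and 4 of 35. KRT18 had 247, 553 and 852 units with palmitic acid and 143, 310 and 548 in control, and its partner KRT8 had 361, 743 and 900 with palmitic acid and 233, 472 and 629 in control. KRT18 rose by 0.82 ± 0.11 and KRT8 by 0.63 ± 0.09. Claudins of the tight junction moved apart, CLDN4 by 1.33 ± 0.20 and CLDN6 by 0.88 ± 0.13 upward and CLDN2 by -0.44 ± 0.12. CLDN4 changed by only 0.02 in its least responsive clone and by 2.25 in the most. The gap junction connexin GJB1 of hepatocytes fell (-0.53 ± 0.09), as did cingulin CGN (-0.54 ± 0.11). Of 45 matrix genes 7 rose and 11 fell. FN1 (0.64 ± 0.11), COL16A1 (0.82 ± 0.15), TIMP1 (0.66 ± 0.15) and SDC4 (0.68 ± 0.10) rose, while COL6A1 (-0.89 ± 0.11), COL9A2 (-0.77 ± 0.12), the perlecan HSPG2 (-0.64 ± 0.09) and COL18A1 (-0.44 ± 0.11) fell. The metalloproteinase ADAM19 (1.34 ± 0.28) and the microfibril protein ADAMTSL2 (1.35 ± 0.23) were among the larger rises, and ADAM19 ranged from 0.08 to 2.56 over clones. Guidance molecules, 37 tested, gave 11 rises and 9 falls: ROBO1 (0.49 ± 0.04), SEMA3C (1.26 ± 0.23), SEMA3G (1.09 ± 0.14) and EFNA2 (1.03 ± 0.13) rose, and SEMA4G (-0.48 ± 0.10), PLXNC1 (-0.43 ± 0.07) and SLIT2 (-0.49 ± 0.14) fell.

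Many cytosolic chaperones rose as well. Of 29 heat shock proteins and co-chaperones 15 rose and 0 fell, with a median of 0.20 and a positive median in 8 of 8 clones, and without CC3 14 rose. HSPB1, a small heat shock protein that also binds actin (chromosome 7), had 24.1, 46.3 and 72.2 units with palmitic acid and 11.1, 27.1 and 34.9 in control. It rose by 0.90 ± 0.08 (adjusted p = 2.47e-05) and by 0.40 to 1.13 in single clones. The HSP70 gene HSPA1B had 122, 156 and 189 units with palmitic acid and 99.0, 125 and 139 in control (0.35 ± 0.05, adjusted p = 0.000638). HSPA1A rose by 0.39 ± 0.08, and the reads of this near-identical pair are hard to part. The co-chaperones BAG2 (0.39 ± 0.06) and BAG3 (0.28 ± 0.05), HSPH1 (0.30 ± 0.07), AHSA1 (0.34 ± 0.07) and HSP90AA1 (0.22 ± 0.05) rose.

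Promoters of 2 heat shock genes and of 1 histone gene are shown because their groups moved together and share letters that the list did not use. The windows are the 250 bases before the RefSeq start on GRCh38.p14, and 7568 of the 13095 genes (57.8%) had one. Heat shock elements (GAA, any 2 bases, then TTC, which reads alike on both strands) are in capitals with 1 flanking base in the heat shock genes, and CCAAT boxes of the strand shown are in capitals in HIST1H3C. The plus-strand windows are chr7:76302423-76302672 for HSPB1, chr6:31827488-31827737 for HSPA1B and chr6:26045134-26045383 for HIST1H3C.
HSPB1: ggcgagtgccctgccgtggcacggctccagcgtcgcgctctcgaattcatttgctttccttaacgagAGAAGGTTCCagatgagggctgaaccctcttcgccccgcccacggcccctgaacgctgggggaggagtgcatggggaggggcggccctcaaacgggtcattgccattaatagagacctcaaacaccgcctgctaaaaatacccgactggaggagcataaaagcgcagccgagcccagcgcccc
HSPA1B: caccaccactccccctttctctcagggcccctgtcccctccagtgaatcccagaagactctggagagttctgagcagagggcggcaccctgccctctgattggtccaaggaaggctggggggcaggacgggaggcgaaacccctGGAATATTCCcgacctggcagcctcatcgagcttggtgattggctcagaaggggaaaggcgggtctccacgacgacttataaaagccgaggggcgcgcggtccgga
HIST1H3C: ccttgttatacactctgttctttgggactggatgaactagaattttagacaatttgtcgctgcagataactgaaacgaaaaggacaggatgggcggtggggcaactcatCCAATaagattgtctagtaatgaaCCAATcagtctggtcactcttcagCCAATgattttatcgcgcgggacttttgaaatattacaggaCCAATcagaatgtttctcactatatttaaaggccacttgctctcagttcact
The heat shock element letters were in 9 of 18 heat shock list promoters (50.0%) and in 3.9% of all 7568 windows. They were in 4.6% of the windows of genes that rose and 4.7% of those that fell, close to each other. CCAAT or its reverse ATTGG was in 34 of 43 histone promoters (79.1%) and in 36.6% of all windows, and TATAAA in 67.4 and 5.3%. A match describes letters and not a bound site.

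Other parts of protein handling moved less. Of 19 subunits of the vacuolar proton pump, which acidifies lysosomes, 6 rose and 1 fell, with a positive median in 8 of 8 clones; ATP6V1E1 rose by 0.40 ± 0.06 and ATP6V1G1 by 0.33 ± 0.05. Of 48 proteasome genes 9 rose and 0 fell with CC3 and 3 rose without it, and the clone median was 0.37 in CC3 against -0.04 to 0.12 in the other 7. Of 46 vesicle coat and ER translocation genes 5 rose, close to the 10.7% of all genes. Of 22 amino acid carriers 8 rose and 2 fell: SLC43A2 (0.51 ± 0.08), SLC38A2 (0.37 ± 0.12) and SLC7A5 (0.28 ± 0.08) rose, and the glycine carrier SLC6A9 fell (-0.47 ± 0.08). Of 19 aminoacyl-tRNA synthetases 4 rose and 0 fell, by 0.17 to 0.27.

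Many secreted liver proteins fell, as did 5 of the 9 hepatocyte markers, which include secreted liver proteins themselves. Of 20 complement components 0 rose and 9 fell, with a median of -0.32 and a negative median in 8 of 8 clones, from -1.10 in CC3 to -0.03 in GG6. C5, of the terminal pathway, had 81.6, 171 and 347 units with palmitic acid and 136, 250 and 705 in control (-0.64 ± 0.09, adjusted p = 0.000498). C8B (-1.17 ± 0.21), C8A (-0.94 ± 0.23), C1R (-0.84 ± 0.16) and the inhibitors SERPING1 (-0.80 ± 0.14) and CLU (-0.86 ± 0.12) fell. Of 18 coagulation factors and inhibitors outside the fibrinogen chains 1 rose and 8 fell. SERPINC1, antithrombin, had 40.6, 74.0 and 163 units with palmitic acid and 105, 134 and 213 in control (-0.91 ± 0.09, adjusted p = 6.24e-05), and F13B (-1.55 ± 0.19), SERPINF2 (-0.87 ± 0.16), F11 (-0.53 ± 0.09) and F2, prothrombin (-0.30 ± 0.06), fell. SERPINA5, the protein C inhibitor, rose by 0.33 ± 0.06. HP, which binds free haemoglobin, fell to 76.5, 132 and 269 units with palmitic acid, against 234, 321 and 453 in control (-1.28 ± 0.17). Of 18 acute phase and carrier proteins 1 rose, the inhibitor SERPINA3 (0.71 ± 0.19), and 5 fell, with a median of -0.14 and a negative median in 7 of 8 clones. Of 27 iron and haem genes 5 rose (1 without CC3) and 3 fell: HAMP, the iron hormone hepcidin, fell by 1.15 ± 0.16 on the log2 scale and its regulator TFR2 by 0.53 ± 0.16, while ferritin FTL rose (0.34 ± 0.07). CC3 had the lowest clone median of the complement list (-1.10) and of the coagulation list (-0.83); without CC3, 9 complement and 7 coagulation genes fell.

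Transcription factors of the hepatocyte moved in part. Of 27 tested 2 rose and 7 fell: ONECUT1 (-0.78 ± 0.13), the bile acid receptor NR1H4 (-0.69 ± 0.13), NR2F2 (-0.62 ± 0.07), CEBPB (-0.41 ± 0.12), CEBPA (-0.29 ± 0.08), NR1H3 (-0.27 ± 0.08) and HNF4A (-0.25 ± 0.08) fell. The xenobiotic receptor NR1I2 had 33.7, 46.5 and 52.7 units with palmitic acid and 27.6, 37.2 and 44.5 in control and rose by 0.33 ± 0.06, as did ESRRA (0.23 ± 0.07). Clone medians of the list were small, from -0.19 in CC3 to 0.00 in GC4.

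Catabolic enzymes of the liver fell more often than genes at large. Of 37 amino acid catabolism genes 0 rose and 14 fell, with a negative median in 8 of 8 clones (-0.59 to -0.11). BHMT, which remethylates homocysteine, had 1.08, 3.33 and 22.5 units with palmitic acid and 5.40, 9.58 and 59.1 in control (-1.23 ± 0.16, adjusted p = 0.000398). AGXT, the peroxisomal glyoxylate transaminase (-1.18 ± 0.20), AASS of lysine breakdown (-0.55 ± 0.09), HAL of histidine breakdown (-0.59 ± 0.15) and BCKDHA of branched-chain breakdown (-0.22 ± 0.07) fell. In the urea cycle CPS1 fell (-0.42 ± 0.07) and ASS1 rose (0.39 ± 0.09). Of 14 alcohol and aldehyde dehydrogenases 1 rose and 9 fell, the highest share of falls of any list with at least 10 genes tested. ADH4, which oxidizes ethanol and retinol, had 2.99, 8.64 and 24.4 units with palmitic acid and 5.70, 20.4 and 46.3 in control (-1.04 ± 0.09, adjusted p = 2.47e-05). ADH5 had 186, 283 and 370 units with palmitic acid, against 280, 366 and 470 in control (-0.39 ± 0.05), and ALDH6A1 (-0.84 ± 0.13) and ALDH7A1 (-0.44 ± 0.06) fell. ALDH1A1, which makes retinoic acid, rose (0.36 ± 0.10).

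Drug and glutathione enzymes moved both ways, where 10.7% of all genes tested rose and 10.2% fell. Shares up and down were 16.7 and 10.0% for glutathione genes, near those of all genes. They were 11.8 and 29.4% for phase I enzymes, 17.6 and 17.6% for the transferases of the next list, and 22.9 and 22.9% for the carriers. Of 17 cytochromes P450 and other phase I enzymes 2 rose and 5 fell, the fatty acid hydroxylases CYP4F3 (-0.75 ± 0.11) and CYP4F12 (-0.79 ± 0.11) among the falls and CYP39A1 of bile acid synthesis (0.52 ± 0.10) among the rises. Of 17 UDP-glucuronosyl, sulfo- and methyltransferases 3 rose and 3 fell, with the thiopurine methyltransferase TPMT at 0.27 ± 0.06 and SULT1A2 at -0.57 ± 0.12. Of 30 glutathione transferases and peroxidases 5 rose, GPX2 by 0.62 ± 0.12 and GPX1 by 0.30 ± 0.06 among them, and 3 fell. The export pump ABCC1, which carries glutathione conjugates, had 115, 189 and 244 units with palmitic acid and 70.9, 105 and 171 in control (0.70 ± 0.07, adjusted p = 3.63e-05). Of 35 glucose, lactate and organic ion carriers 8 rose and 8 fell, with the glucose carrier SLC2A3 up (0.75 ± 0.16), and the hepatocyte glucose carrier SLC2A2 (-0.33 ± 0.10) and the citrate carrier SLC13A5 (-0.77 ± 0.14) down.

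In lipid metabolism single genes moved both ways, and peroxisomal genes fell more often than they rose. Over all genes tested 10.7% rose and 10.2% fell. Shares up and down were near these for phospholipid genes (13.3 and 13.3%) and for desaturases and elongases (13.3 and 6.67%). They were 5.88 and 14.7% for ceramide and sphingolipid enzymes, 22.7 and 13.6% for fatty acid uptake, binding and activation, and 6.06 and 27.3% for peroxisomal genes. Of 22 genes of fatty acid uptake, binding and activation 5 rose and 3 fell: ACSL1, which activates long-chain fatty acids, had 16.7, 56.7 and 173 units with palmitic acid and 13.8, 44.9 and 89.8 in control (0.53 ± 0.11), and FABP3 rose (0.44 ± 0.13), while ACSL5 (-0.52 ± 0.15) and SLC27A2 (-0.41 ± 0.08) fell. Of 15 desaturases and elongases 2 rose and 1 fell, ELOVL6, which lengthens palmitate itself (-0.34 ± 0.07). SCD, the stearoyl-CoA desaturase, had a change of 0.18 ± 0.11 (adjusted p = 0.288). Of 34 ceramide and sphingolipid enzymes 2 rose (1 without CC3) and 5 fell. The falls held SPTLC3 (-0.71 ± 0.14), SPTSSA (-0.45 ± 0.09) and SPTSSB (-0.94 ± 0.16), which belong to serine palmitoyltransferase, the enzyme that joins palmitate to serine, and SGPL1, which breaks down sphingosine phosphate, rose (0.31 ± 0.06). Of 30 phospholipid genes 4 rose and 4 fell, with ETNK2 (-0.54 ± 0.08) and PLD2 (-0.50 ± 0.09) down and LPCAT3, which inserts polyunsaturated acyl chains, up (0.35 ± 0.07). Of 33 peroxisomal genes 2 rose and 9 fell, with ACOX2 (-0.70 ± 0.11) and PHYH (-0.53 ± 0.10) down and ACOX3 up (0.29 ± 0.07).

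In central carbon metabolism the tricarboxylic acid cycle held few calls, where 10.7% of all genes tested rose and 10.2% fell. Of 23 tricarboxylic acid cycle genes 0 rose and 1 fell, citrate synthase CS (-0.20 ± 0.05). Of 13 pentose phosphate and NADPH genes 3 rose (23.1%) and 0 fell, among the rises the epimerase RPE (0.17 ± 0.05) and the cytosolic isocitrate dehydrogenase IDH1 (0.16 ± 0.05). Of 16 gluconeogenesis and glycogen genes 2 rose and 2 fell (12.5% each), close to the shares of all genes. The glucose-6-phosphate carrier SLC37A4 was down (-0.46 ± 0.10) and the brain-type phosphorylase PYGB up (0.28 ± 0.06).

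Of 20 circadian clock genes 3 rose (15%) and 4 fell (20%), where 10.7% of all genes tested rose and 10.2% fell. The other 13 were not called, and the median change of the list was -0.07. Whether these shares differ from those of all genes was not tested, so the genes below are described singly. BHLHE40, a repressor of clock factors, had 5.21, 16.2 and 81.8 units with palmitic acid and 1.39, 6.46 and 25.0 in control (1.55 ± 0.19, adjusted p = 0.000228), and NPAS2, a partner of the activator BMAL1, rose by 0.67 ± 0.08. The 3 PAR-bZIP output factors fell: DBP by 0.73 ± 0.09, TEF by 0.62 ± 0.11 and HLF by 0.40 ± 0.07 on the log2 scale. DBP had 1.19, 2.24 and 3.38 units with palmitic acid and 2.10, 4.17 and 6.04 in control, and its change lay between -0.86 and -0.54 in every clone. PER2 fell (-0.21 ± 0.05) and CRY1 rose (0.30 ± 0.07).

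Genes of the S phase of the cell cycle fell, by sizes that differed over clones. Of 46 histones of the replication clusters, whose mRNAs mostly lack a poly(A) tail and are kept by depletion of ribosomal RNA, 0 rose and 24 fell. Clone medians ran from -0.78 in CC3 and -0.58 in GG6 to -0.09 in CC1 and -0.03 in GG2, and without CC3 22 fell. HIST1H3C had 19.3, 74.6 and 137 units with palmitic acid and 35.5, 108 and 157 in control (-0.52 ± 0.07, adjusted p = 0.000434), with GG6 the lowest library in both conditions. HIST1H3D (-0.46 ± 0.07), HIST1H4H (-0.43 ± 0.07) and the linker histone HIST1H1C (-0.33 ± 0.07) fell; histone genes of a class are near-identical, so that their reads may be shared. Of 48 DNA replication genes 0 rose and 15 fell (9 without CC3), and the clone median was positive in GG2 (0.13) and CC1 (0.01) and lowest in GG6 (-0.52). GINS2 (-0.53 ± 0.10), the licensing factor CDT1 (-0.42 ± 0.08), POLE (-0.40 ± 0.09) and MCM2 (-0.31 ± 0.09) fell. Of 53 DNA repair genes 0 rose and 15 fell (10 without CC3), FANCG by 0.35 ± 0.07 and PARP1 by 0.21 ± 0.05 on the log2 scale.

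The translation machinery changed little. Of 83 cytosolic ribosomal proteins 0 rose and 4 fell (1 without CC3), below the background of both directions, with clone medians of -0.15 (CC1) to 0.09 (GG6). Of 77 mitochondrial ribosomal proteins 4 rose and 3 fell. MRPS23 had 65.2 to 81.1 units with palmitic acid and 46.0 to 57.8 in control. Of 73 ribosome biogenesis genes 9 rose and 0 fell, of which UTP15 (0.36 ± 0.06) had the smallest p. Among 48 translation factors 7 rose and 1 fell, EIF4EBP2, an inhibitor of cap-dependent initiation (-0.36 ± 0.06).

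**Figure D5:**
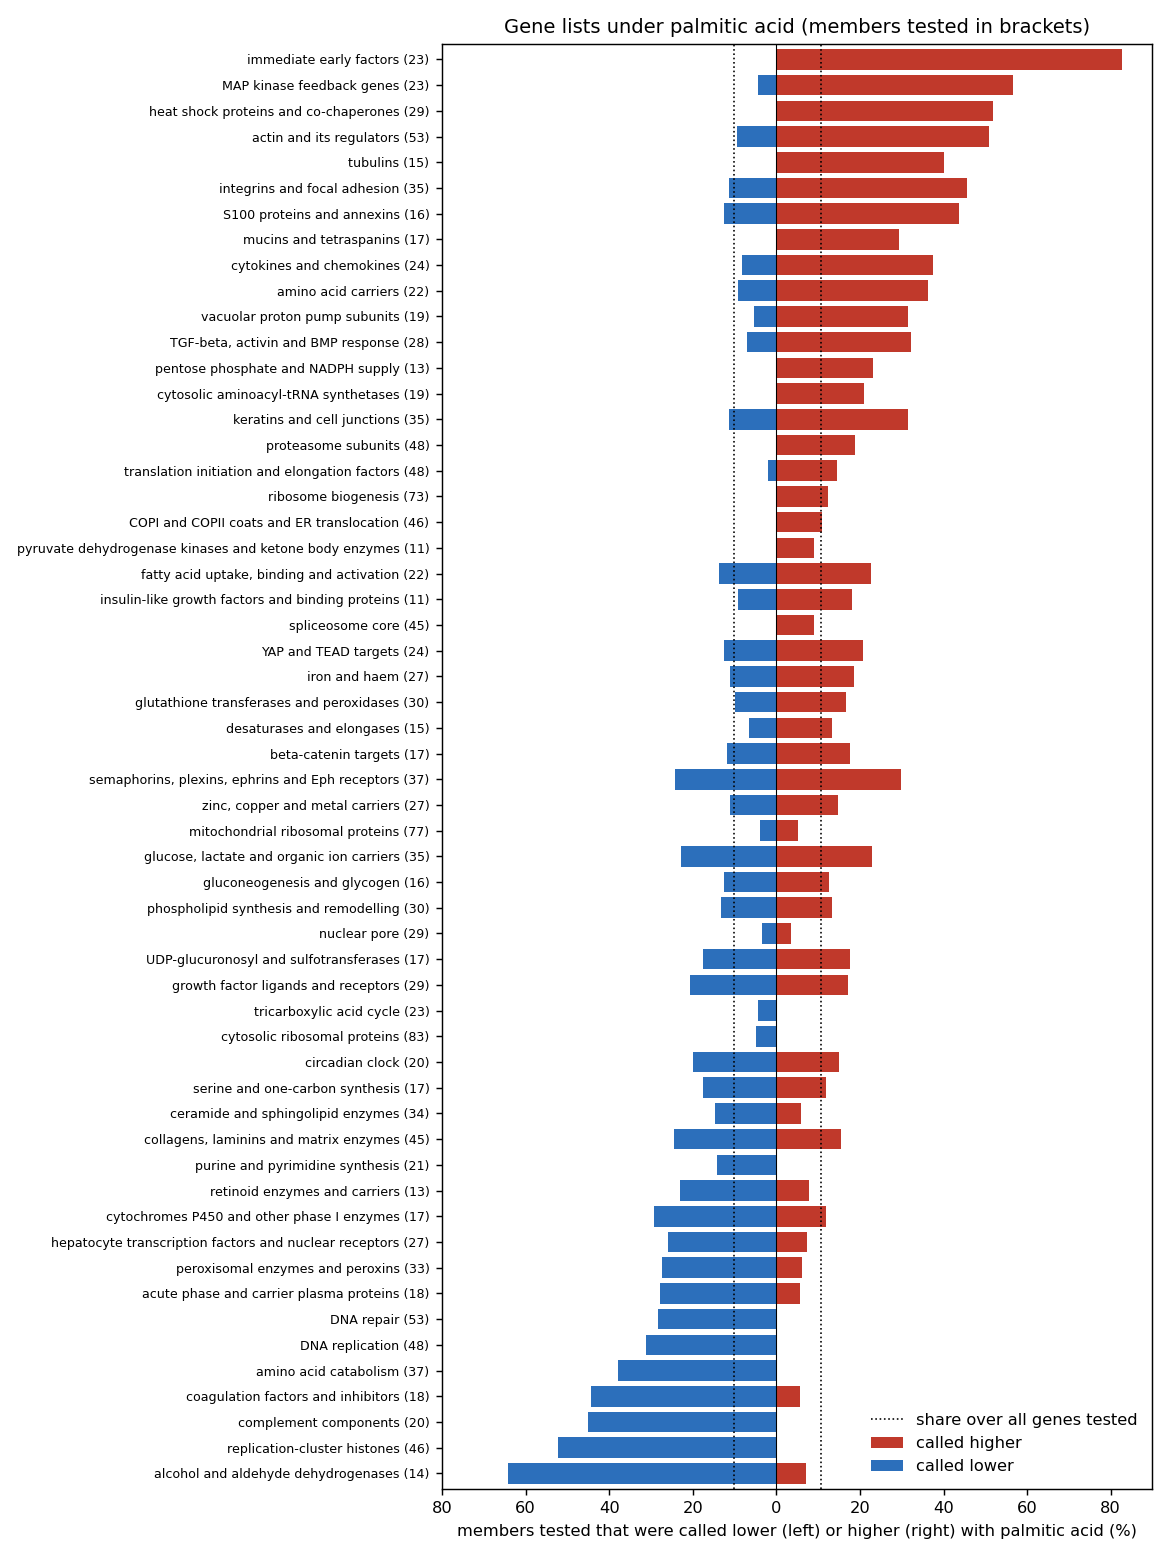
Percentage of each list's tested members that limma called lower (left, blue) or higher (right, red) with palmitic acid, for lists with at least 10 members tested, ordered by the difference. Dotted lines mark 10.7% higher and 10.2% lower over all 13095 genes; immediate early genes lead upward with 19 of 23, and alcohol and aldehyde dehydrogenases downward with 9 of 14.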

How the data were processed

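The authors deposited a normalized signal per gene for 16 libraries. The deposited values were whole multiples of 1 step per library (100% at a tolerance of 0.01 reads), and TMM factors recomputed by edgeR from the recovered reads matched the deposited ones within 2.22e-16. Per the submitters' processing notes, Trimmomatic 0.38, RSEM 1.3.0, Bowtie2 and edgeR were used with hg38; neither annotation nor gene filter is stated there. Per the labels' protocols, RNA was depleted of ribosomal RNA and made into directional libraries.

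The design asked for pairing by clone: limma with a mean-variance trend on log2(value + 0.5), clone as a block, two-sided, 7 residual degrees of freedom (5 in the genotype F test), Benjamini-Hochberg over all 13095 genes. Each clone has equal weight. Pairing comes from the clone labels; deviations of a clone's libraries from their group means correlated at 0.523 to 0.857, best with their own partner in 8 of 8. p-values measure the spread between these clones, with 1 library per clone and condition. edgeR and DESeq2 on recovered reads were alternatives. Versions were limma 3.58.1, DESeq2 1.42.0 and edgeR 4.0.16 under R 4.3.3. The fit was tested on simulated data.

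The genes, the 58 lists (1982 symbols, 1848 found, of which 32 by a synonym, and 1678 tested) and 5 marker lists were chosen with earlier results of these data known. Named by rule were ranks 11 to 20 by size each way and the 8 most uniform changes of at least 0.5 each way. Both sets were taken from genes called and moving alike in 8 clones, with at least 5 units in the higher condition. Up to 3 called members of each list by p, the 6 widest spreads and the F test's calls were named without these limits. The widest spreads were taken among genes with at least 10 units in both conditions, called or not. Other list members were named after their values were seen. Positions are from GENCODE on GRCh38, which placed 97.2% of genes tested. A few genes that the rule names are not reported here.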

Additional observations from a re-analysis of the deposited data

Results flagged for a closer look

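In 203 genes named by rule, the 8 clone changes were searched for 1 clone lying far from the other 7 by Dixon's ratio. Such a clone was found in 21 genes (10.3%), and it was CC3 in 18. Chance gives about 1 in 20 for independent groups that were not selected. These genes share the same 8 clones and were chosen in part by spread and direction, so the 10.3% cannot be set against that rate. The spread of all gene changes was also apart in CC3, with an SD of 0.567 against 0.311 to 0.404 elsewhere.

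In CC3 the liver-secreted proteins C8B (-2.98), CLU (-1.82), FGG (-2.17), AFP (-1.40) and APOA1 (-1.39) changed more than in any other clone; the others lay between -1.28 and -0.56 for C8B and between -0.47 and -0.10 for APOA1. The same held for the enzymes AGXT (-2.92), ALDH1L1 (-1.90), ACOX2 (-1.58), PHYH (-1.34) and CA4 (-2.79), the carriers SLC37A4 (-1.31) and SLC39A5 (-1.50), the receptor CSF3R (-2.43), the perlecan HSPG2 (-1.38) and the kinase DAPK1 (-0.86). Upward, CC3 stood apart for RPE (0.42), PSMD6 (0.60) and ATP6V1G1 (0.60). The palmitic acid library of CC3 also had the fewest reads (9314342) and detected genes (15662) and the highest labelled hours (55); the part of these in the result was not tested.

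Outside CC3, RPL13A changed by -0.78 in GG2 and by -0.35 to 0.01 in the other clones. TSPAN17 changed by -0.13 in CC1, against 0.20 to 0.45 in the others. NUDT4P1 changed by 6.64 in GC3, where its control library is listed at 0. The response of MUC5AC differed between genotypes by limma's F test, with a mean change of 4.12 in CC clones against 0.06 in GC and 0.00 in GG clones. It passed the filter on low values only through the 2 CC palmitic acid libraries, so it had to differ there, and with controls at or near 0 the size of 4.12 is set by the pseudocount.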

How the results depend on the processing

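The count of 2745 called genes stayed within 1.5 times in every setting but the fit without the block and the fit without GC3; edgeR gave 2696, DESeq2 2485, limma without trend 2272, equal library totals 2635 (1165 higher and 1470 lower, against 1406 and 1339) and the fit without both CC clones 2360. Pairing decided the calls: with no replicate block 19 genes were left, 10 higher and 9 lower, all 19 among the 2745, with 1295 past an unadjusted p of 0.05. Leaving out 1 clone gave 1742 (without GC3) to 2554 (without CC1) calls, 903 to 1350 up and 839 to 1247 down; without GG1 there were 1862. The genotype F test called 0 genes with a pseudocount of 0.1, with a filter of at least 5 units and by edgeR, 6 with no filter, and 0 to 194 without 1 clone. The 194 arose without CC1, where CC3 alone stands for CC and is assumed to vary like the other clones. Over 203 named genes and 22 settings no named gene turned its direction. Many named genes moved alike in every clone, so that leaving out a clone could not turn them. The fit without the block has the same mean changes and could not turn any. Of 4452 values 4080 kept their side of the threshold, 370 lost it and 2 gained it. Of the 370, 191 were lost in the fit without the block, where 12 of 203 kept their side. Scaling moved the median of all genes by under 0.1. Genes with few reads had wider spread over clones, and depth is lowest in the palmitic acid library of CC3.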

Other observations

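The share of called genes rose with the level of the gene. It was 10.4% of 920 genes at 1 to 2 units, 19.9% of 1943 genes at 10 to 20 units and 27.7% of 2245 genes at 100 units and over. The median SD of the change over clones was 0.44, 0.23 and 0.15 in these classes.

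Among antisense and long intergenic RNAs, fewer genes were called higher than the 10.7% of all genes tested, while 10.2% of all genes were called lower. Of 203 antisense transcripts 3 rose (1.48%) and 13 fell (6.4%), with a median change of -0.096, and of 150 long intergenic RNAs 5 rose (3.33%) and 15 fell (10.0%), with a median of -0.077. Of 12020 protein-coding genes 1374 rose and 1253 fell, with a median of 0.0018. The antisense and intergenic RNAs had lower median levels (3.23 units for antisense RNAs) than protein-coding genes (30.7 units), and genes at 1 to 2 units had a median change of -0.096, so that level and gene class move together here and were not parted. How reads on opposite strands were counted is not given in the sources used here.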
